A study of Arabidopsis thaliana with 9 samples.

Results

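AT5G10040 and AT5G10050 lie next to each other on chromosome 5 of Arabidopsis thaliana, and both were examined in roots of 3 genotypes grown under oxygen shortage. AT5G10040 is on the core hypoxia list, genes that plants switch on in most cell types when oxygen runs short. The list used here was written from general knowledge of the field. AT5G10040 codes for a small protein whose molecular function is not known. AT5G10050 codes for an NAD(P)-binding protein of the Rossmann-fold family, a large class of oxidoreductases, and its substrate is not known. The 2 genes are 2 of 16552 with a row of their own in the array annotation. Each has 1 row among those paired with 1 gene, and neither row had the same values as another row of the deposited table. Rows paired with several genes, or with none, were not searched for them. They were chosen by their position as neighbours and by their measured levels, their shared pattern over the arrays and their differences between the genotypes, so all of these are given as descriptions, with no test.

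The genotypes were the wild type Col-0 and the lines hcr1-1 and hcr1-2, which carry mutations of HCR1 (AT3G24715) in the Col-0 background. All plants grew in hydroponics with ample potassium at a pO2 of 11.1 ± 1.1%, and roots were taken at an age of 21 days. Each genotype had 3 arrays, called biological replicates in the labels, and the RNA for an array, 100 ng, came from a pool of 5 plants. The labels do not place the mutations of the lines, and no group was grown in normal air, so the effect of hypoxia itself was not measured.

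In plants the low-oxygen response runs through group VII ethylene response factors such as RAP2.12, which are degraded while oxygen is present and persist when it is short, and which then switch on genes for fermentation, oxygen sensing and many proteins of unknown role. HCR1 is a Raf-like protein kinase known from root hydraulics, and it is known to act on RAP2.12 in a way that depends on potassium and oxygen.

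The values are log2 signals after normalization by the submitters, so a difference of 1 is a factor of 2 in signal. Array medians over the table lay between 3.41 and 3.48. Signal of the mutated gene was set beside the labels. In Col-0 HCR1 lay between 4.60 and 4.88, the hcr1-1 arrays gave 2.36 to 3.46 and the hcr1-2 arrays 4.24 to 4.38. No mutant array reached the wild-type range. The limma log2 fold change of HCR1 from Col-0 was -1.76 in hcr1-1 (SE 0.23, adjusted p = 0.13 over all rows). In hcr1-2 it was -0.48 (SE 0.23, adjusted p = 0.903), so neither difference passed. Every hcr1-2 array lay below every Col-0 array in 4.34% of all rows, so for hcr1-2 this check of the labels was weak. Of the root markers, 4 of 8 were measured, and their array means lay between 5.33 and 5.83 in Col-0, between 5.31 and 5.73 in hcr1-1 and between 5.66 and 5.91 in hcr1-2. Of the shoot markers, 3 of 7 were measured, with array means from 4.33 to 4.69 in Col-0, from 4.48 to 4.53 in hcr1-1 and from 4.42 to 4.67 in hcr1-2. The root peroxidase gene AT5G17820, at r = -0.74 with AT5G10040 over the 9 arrays, and the shoot gene LHCB4.1 (AT5G01530), at r = -0.74, followed AT5G10040 most closely among these markers, both in the opposite direction, and their part in the results was not tested. In pooled whole roots, fewer cells that express a gene and less RNA per cell cannot be told apart.

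In Col-0 replicates 1 to 3, AT5G10040 had a log2 signal of 9.26, 8.0 and 9.36. The hcr1-1 arrays gave 9.05, 6.20 and 8.70, and the hcr1-2 arrays gave 5.95, 6.03 and 7.96. A pair of hcr1-1 arrays stood near the wild type and the array of replicate 2 stood with the lowest arrays of hcr1-2. Within Col-0, replicate 2 was the low array. The wild-type mean was 8.87 ± 0.76 (SD, n = 3), the hcr1-1 mean 7.98 ± 1.55 and the hcr1-2 mean 6.65 ± 1.14.

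For AT5G10050 the Col-0 arrays gave 8.16, 7.12 and 8.13, the hcr1-1 arrays 8.03, 5.74 and 7.72 and the hcr1-2 arrays 5.59, 5.98 and 7.03, again with replicate 1 first. The same arrays were high and low as for AT5G10040, with small exchanges of order at both ends: next above the lowest array came hcr1-2 replicate 2 for AT5G10040 and hcr1-1 replicate 2 for AT5G10050, and the highest array was Col-0 replicate 3 for AT5G10040 and Col-0 replicate 1 for AT5G10050. The wild-type mean was 7.80 ± 0.59 (SD, n = 3), with 7.16 ± 1.25 for hcr1-1 and 6.20 ± 0.74 for hcr1-2.

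For both genes the order of the means was Col-0, hcr1-1, hcr1-2. Neighbours in this order did not differ beyond their spread, since the hcr1-1 arrays overlapped both the Col-0 and the hcr1-2 arrays. Col-0 and hcr1-2 did not overlap, but the gap was narrow: the lowest Col-0 array lay above the highest hcr1-2 array by 0.033 log2 units for AT5G10040 and by 0.091 for AT5G10050. Between these arrays, Col-0 replicate 2 and hcr1-2 replicate 3, the pair had almost the same signal.

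**Figure D1:**
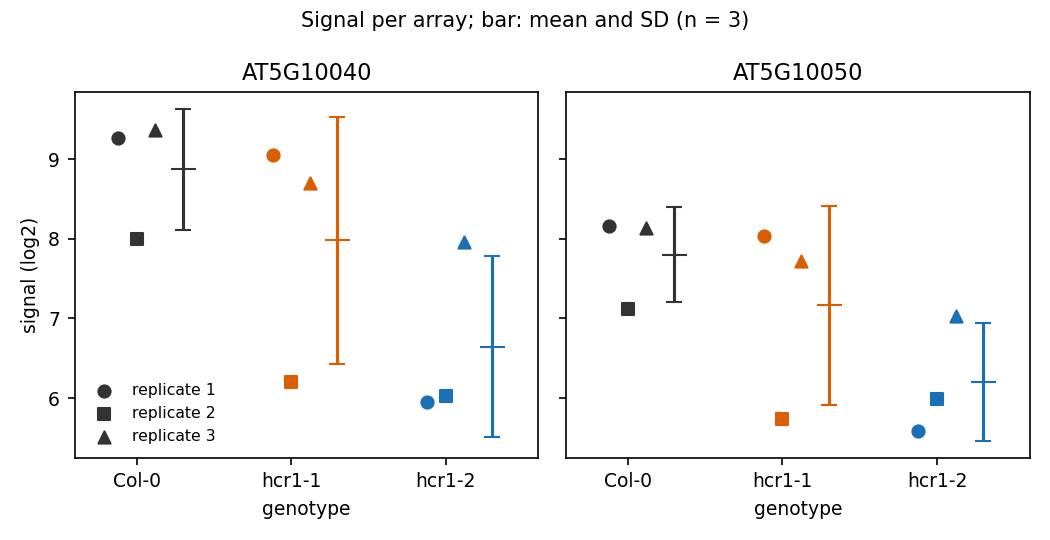
Log2 signal of AT5G10040 (left) and AT5G10050 (right) in each of the 9 arrays by genotype, with a symbol for each replicate number and, beside the points, the mean with its SD (n = 3). The hcr1-1 array of replicate 2 (6.20 and 5.74) sits apart from the other hcr1-1 arrays and near the lowest hcr1-2 arrays.

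The first comparison set hcr1-2 against Col-0. The limma log2 fold change of AT5G10040 was -2.23, with an SE of 0.72 and a 95% interval of -3.80 to -0.66, a signal of 21.4% of the wild type (95% interval 7.20 to 63.4%). AT5G10050 stood at -1.60 (SE 0.55, 95% interval -2.80 to -0.41), a signal of 32.9% of the wild type (14.4 to 75.4%). Both genes were thus at -1 or lower, where 0.119% of the 16746 tested rows were, and in both every hcr1-2 array lay lower than every wild-type array, as in 4.34% of rows. The choice of the genes used this contrast, so nothing is read from these counts. Over all rows, 0 passed the limma test in this contrast at an adjusted p of 0.05 (0% of rows), and 904 had an unadjusted p under 0.05.

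In hcr1-1 against Col-0, AT5G10040 stood at -0.89 (SE 0.72, 95% interval -2.46 to 0.68), or 53.9% of the wild type, and AT5G10050 at -0.64 (SE 0.55, 95% interval -1.83 to 0.56), or 64.3%. Neither gene was at -1 or lower (0.0119% of rows were), and neither had arrays that all lay below Col-0 (4.02% of rows did). These means rest on 1 array: without hcr1-1 replicate 2 the fold change was -0.0016 for AT5G10040 and 0.077 for AT5G10050, and without hcr1-1 replicate 1 it was -1.42 and -1.07. Leaving out Col-0 replicate 2 moved AT5G10040 to -1.33 and AT5G10050 to -0.98.

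In the mean of both lines against Col-0, AT5G10040 stood at -1.56 (SE 0.62, 95% interval -2.92 to -0.20) and AT5G10050 at -1.12 (SE 0.47, 95% interval -2.15 to -0.084). Both were at -1 or lower, as were 0.0597% of rows. In neither gene did the mutant arrays all lie below Col-0, a separation that 0.711% of rows had, since hcr1-1 replicates 1 and 3 lay above the lowest Col-0 array.

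Between the lines, the log2 fold change of hcr1-2 against hcr1-1 was -1.34 (SE 0.72, 95% interval -2.90 to 0.23) for AT5G10040 and -0.96 (SE 0.55, 95% interval -2.16 to 0.23) for AT5G10050. AT5G10040 alone of the pair was at -1 or lower here, as were 0.0239% of rows, and in neither gene did all hcr1-2 arrays lie lower than all hcr1-1 arrays, as in 4.54% of rows. The size again turned on hcr1-1: without its replicate 2 the values were -2.23 and -1.68, and without its replicate 1 they were -0.80 and -0.53. HCR1 signal did not follow the pair closely. Over the 9 arrays its Pearson r was 0.043 with AT5G10040 (Spearman rho 0.35) and 0.038 with AT5G10050 (rho 0.383). The mutations are not placed, and how far this signal reflects HCR1 function was not tested. The array with the lowest HCR1 signal, hcr1-1 replicate 3 at 2.36, had AT5G10040 at 8.70. In hcr1-2, where HCR1 signal was 4.24 or more, AT5G10040 was at 7.96 or less.

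The 2 genes moved almost as 1 over the arrays. Their Pearson r was 0.993 and their Spearman rho 0.967 over the 9 arrays (3 per genotype), and r was 0.998 without the 2 arrays farthest from the median of AT5G10040, hcr1-2 replicates 1 and 2. After the genotype means were taken away r was 0.988, so the shared pattern was also present among arrays of 1 genotype. The amplitude differed: for each log2 unit of AT5G10040, AT5G10050 changed by 0.73 log2 units, and by 0.75 within genotypes.

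That smaller amplitude shows in the difference between the genes on each array, taken relative to its Col-0 mean. The Col-0 arrays gave differences of 0.034, -0.19 and 0.16 log2 units, the hcr1-1 arrays -0.058, -0.61 and -0.10, and the hcr1-2 arrays -0.71, -1.03 and -0.13, replicate 1 first. The arrays where both genes were lowest were thus those where AT5G10040 was farthest down relative to AT5G10050, in mutants of either line. Normalization condenses the probes of each gene and can compress a row's changes, and the part of that in the amplitudes was not tested.

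**Figure D2:**
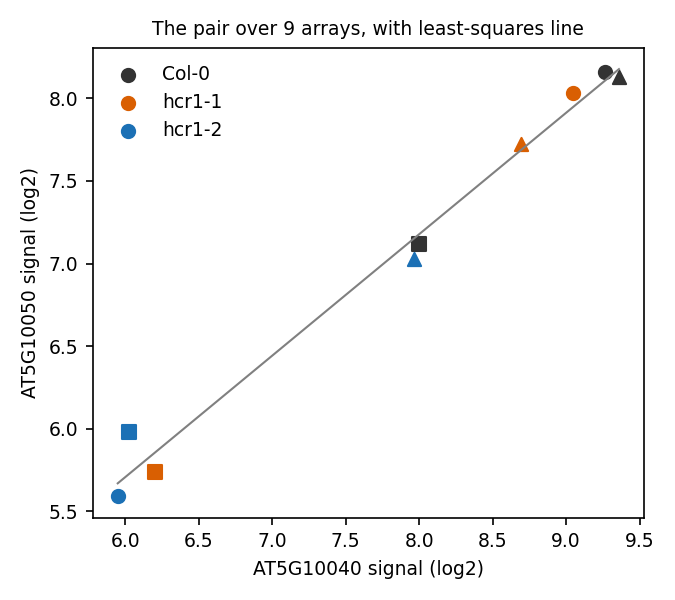
Log2 signal of AT5G10050 (vertical) against AT5G10040 (horizontal) in the 9 arrays, coloured by genotype, with the replicate numbers 1, 2 and 3 as circle, square and triangle, and the least-squares line. The points follow a line with a slope of 0.73 (r = 0.993), and the low end holds hcr1-2 replicates 1 and 2 together with hcr1-1 replicate 2.

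The pair varied widely among all genes measured, and its levels and differences on these arrays were part of why it was chosen. The range of AT5G10040 over the 9 arrays was 3.41 log2 units, the widest of the 16552 genes, against a median of 0.55, and its SD within genotypes, 1.20, was also the highest, against a median of 0.18. AT5G10050 had a range of 2.57 log2 units, the 8th widest, and an SD within genotypes of 0.91, the 7th highest. Only 7.25% of genes ranged over 1 log2 unit or more, but 20 of the other 25 measured core hypoxia genes did. A wide range was thus not particular to the pair. Both rows were bright, with means of 7.83 and 7.06 where the quartiles of all genes were 1.98, 3.52 and 5.23, so neither row lay near the dim end of the table. After AT5G10040, the widest ranges belonged to AT3G29970, a B12D family protein, at 3.16, to AT2G17850, a rhodanese-like sulfurtransferase, at 3.04, and to AT3G23170 at 2.94, which are core hypoxia genes too. Not every wide gene followed the pair: AT1G48720, with a range of 2.76, had an r of 0.090 with AT5G10040, and AT1G47395 (IMA2), an iron-signalling peptide gene with a range of 2.68, had an r of 0.18.

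**Figure D3:**
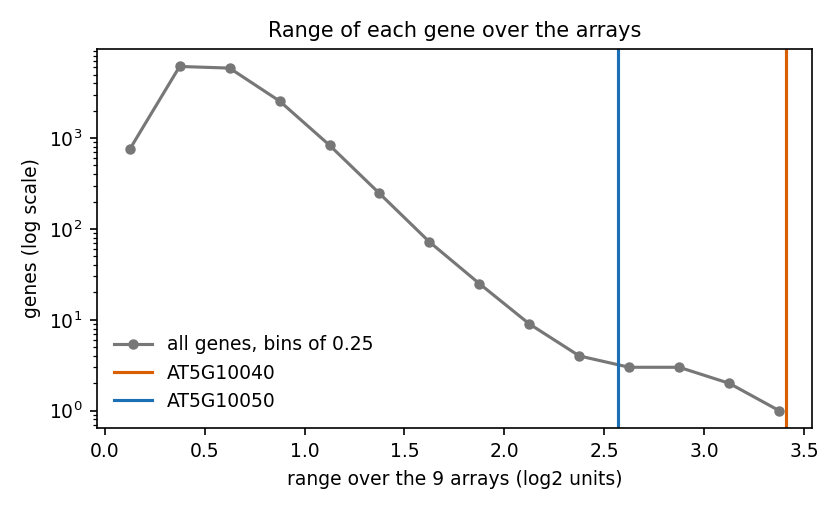
Number of genes (vertical, log scale) by their range over the 9 arrays (horizontal, log2 units, bins of 0.25), with lines at the ranges of AT5G10040 (3.41) and AT5G10050 (2.57). Most genes ranged over less than 1 log2 unit, and AT5G10040 marks the end of the distribution.

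The chromosomal neighbours varied less than the pair and without a common course. Of the 10 genes on each side of the pair in the TAIR10.1 gene table, 8 of 20 were measured. Their Pearson r with AT5G10040 ran from -0.61 (AT5G10120) to 0.59 (AT5G10110), with a median of -0.019, beside a median of -0.053 over all genes, and 4 were above 0 and 4 below. By limma 0 of the 8 passed over all rows in any of the 4 contrasts. In each contrast 0 of all 16746 rows passed, so this count does not set the neighbours apart. An unadjusted p under 0.05 was seen for 1, AT5G10110 between the lines, where 5.24% of all genes had such a p. Their log2 fold changes in hcr1-2 ran from -0.34 to 0.16, with a median of 0.014 beside 0.011 over all genes.

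AT5G10060, the next gene after AT5G10050, shows the edge of the shared pattern. Its Col-0 arrays had log2 signals of 6.95, 7.15 and 6.80, its hcr1-1 arrays 6.90, 7.03 and 6.97 and its hcr1-2 arrays 6.93, 7.01 and 6.96. The groups overlapped, and the whole range was 0.34 log2 units. Its log2 fold change was 0.0014 in hcr1-1 (95% interval -0.25 to 0.25) and -0.0021 in hcr1-2 (95% interval -0.25 to 0.25), with limma adjusted p values of 1.00 and 0.999 over all rows. On the other side the next gene is TGA4 (AT5G10030), a bZIP transcription factor gene, which was not examined here because no tested row was paired with it. In TAIR10.1 the TGA4 gene model spans all of AT5G10040 and reaches into AT5G10050, and the model of AT5G10050 overlaps that of AT5G10060. The probe positions were not used here, so signal from an overlapping transcript could not be told apart for these rows.

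**Figure D4:**
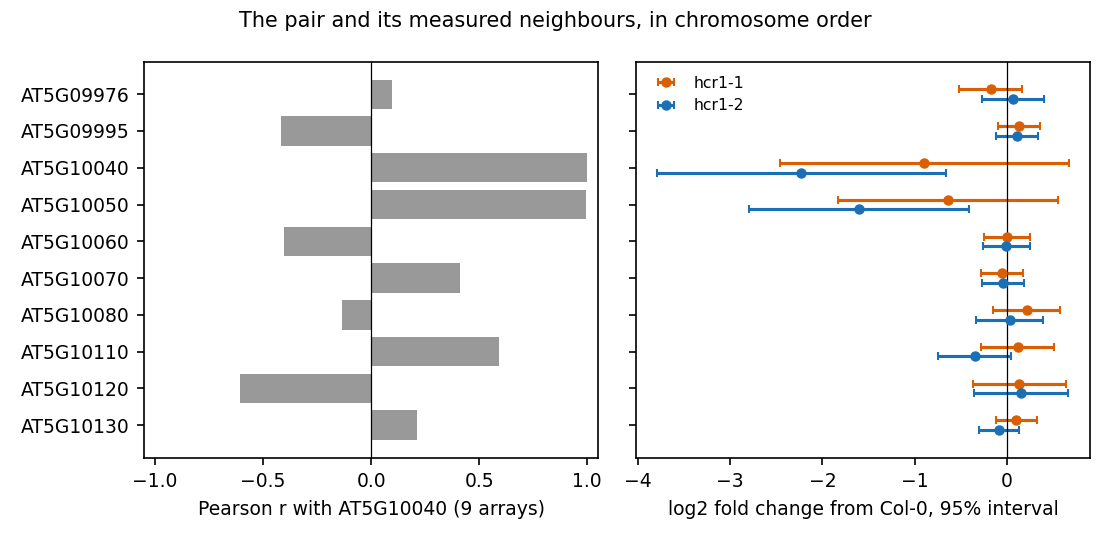
The pair and its 8 measured neighbours in chromosome order from top to bottom. The left panel gives the Pearson r of each gene with AT5G10040 over the 9 arrays, and the right panel gives the limma log2 fold change from Col-0 in hcr1-1 and hcr1-2 with its 95% interval. The neighbours lie between -0.61 and 0.59 on the left and between -0.34 and 0.22 on the right.

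Adjacent genes seldom varied together in these data. Over 8308 pairs of genes that follow each other in the gene table and were both measured, the median r over the 9 arrays was 0.031, and 14 pairs (0.169%) reached 0.9. AT5G10040 and AT5G10050 had the highest r of these pairs, ahead of AT2G27270 and AT2G27280 at 0.979. They were also the 1 pair in which both genes ranged over at least 2 log2 units. These counts describe the arrays at hand, and the shared pattern was part of why the pair was chosen.

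A second adjacent pair on chromosome 5 was set beside it. AT5G65205 also codes for an NAD(P)-binding Rossmann-fold protein, and AT5G65207 next to it codes for a small protein of unknown function. Their gene models overlap in TAIR10.1. The Col-0 arrays of AT5G65207 had log2 signals of 7.18, 6.51 and 7.47, the hcr1-1 arrays 6.79, 6.22 and 7.05 and the hcr1-2 arrays 6.27, 6.53 and 6.58. It was low in the same arrays as the first pair but in another order, with Col-0 replicate 2 below hcr1-2 replicate 2. Its Pearson r with AT5G10040 was 0.857 (Spearman rho 0.867, and 0.783 within genotypes). With replicate means taken away too, that r was 0.402. In hcr1-2 its log2 fold change was -0.59 (SE 0.25, limma adjusted p = 0.903 over all rows) and in hcr1-1 it was -0.37 (SE 0.25, adjusted p = 1.00), so neither difference passed, and the groups overlapped.

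AT5G65205 gave a different picture from AT5G10050. Its Col-0 arrays had log2 signals of 3.86, 3.77 and 3.77, its hcr1-1 arrays 3.85, 4.21 and 3.65 and its hcr1-2 arrays 3.61, 3.75 and 3.51, a range of 0.69. Its r with AT5G10050 was -0.14 over the 9 arrays (Spearman rho 0.333, and r -0.722 within genotypes and 0.356 without hcr1-1 replicate 2 and hcr1-2 replicate 1), so no steady relation was seen, and in hcr1-1 replicate 2, where AT5G10050 was low, AT5G65205 had its highest signal. Its log2 fold change was -0.17 in hcr1-2 (95% interval -0.49 to 0.14, limma adjusted p = 0.938) and 0.10 in hcr1-1 (95% interval -0.21 to 0.42, adjusted p = 1.00). Within this second pair r was -0.16 (Spearman rho -0.017, and r -0.558 within genotypes), where the first pair had 0.993.

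The mean signal of the other core hypoxia genes on each array was set beside the pair. Of the 53 genes on the list, which was written from general knowledge of the field, 26 were measured. AT5G10040 was among them, and AT5G10050 was not on the list. The mean of the other 25, relative to its Col-0 mean, was 0.24, -0.58 and 0.35 on the Col-0 arrays, -0.10, -1.15 and 0.0059 on those of hcr1-1 and -1.10, -0.97 and -0.50 on those of hcr1-2, in log2 units. The arrays low in the pair were low in this mean. AT5G10040 had a Pearson r of 0.967 with it (Spearman rho 0.917, 0.946 within genotypes) and AT5G10050, which the list does not hold, had an r of 0.973 (rho 0.933, 0.957 within genotypes). With replicate means taken away too, r was 0.818 for AT5G10040 and 0.909 for AT5G10050.

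In hcr1-2 all 25 of these genes had a log2 fold change below 0, as did 46.9% of all genes, with a median of -0.77 beside 0.011 over all genes. In hcr1-1 24 of 25 lay below 0, beside 49.2% of all genes, with a median of -0.43 beside 0.0026 over all genes. Without hcr1-1 replicate 2, 16 of 25 lay below 0, beside 8381 of all 16552 genes. The median was then -0.041, beside -0.0022 over all genes. By limma 0 of the 25 passed over all rows in either contrast, where 0 of all 16746 rows passed. In hcr1-2 20 had an unadjusted p under 0.05, beside 5.41% of all genes. In hcr1-1 1 had such a p, a share close to the 3.17% of all genes. Set among the 26 measured core genes and AT5G10050, AT5G10040 had the lowest fold change of 27 in each of the 4 contrasts, and AT5G10050 was 4th lowest in hcr1-2 and 7th lowest in hcr1-1. In hcr1-1 these ranks rest on replicate 2: without it AT5G10040 was 17th and AT5G10050 23rd from the lowest. Between the lines AT5G10040 was 2nd lowest without hcr1-2 replicate 2. The contrasts with Col-0 share the Col-0 arrays, and the genes share the arrays, so these ranks are not independent of each other. The differences ranked here were part of why the pair was chosen, so nothing is read from its ranks.

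**Figure D5:**
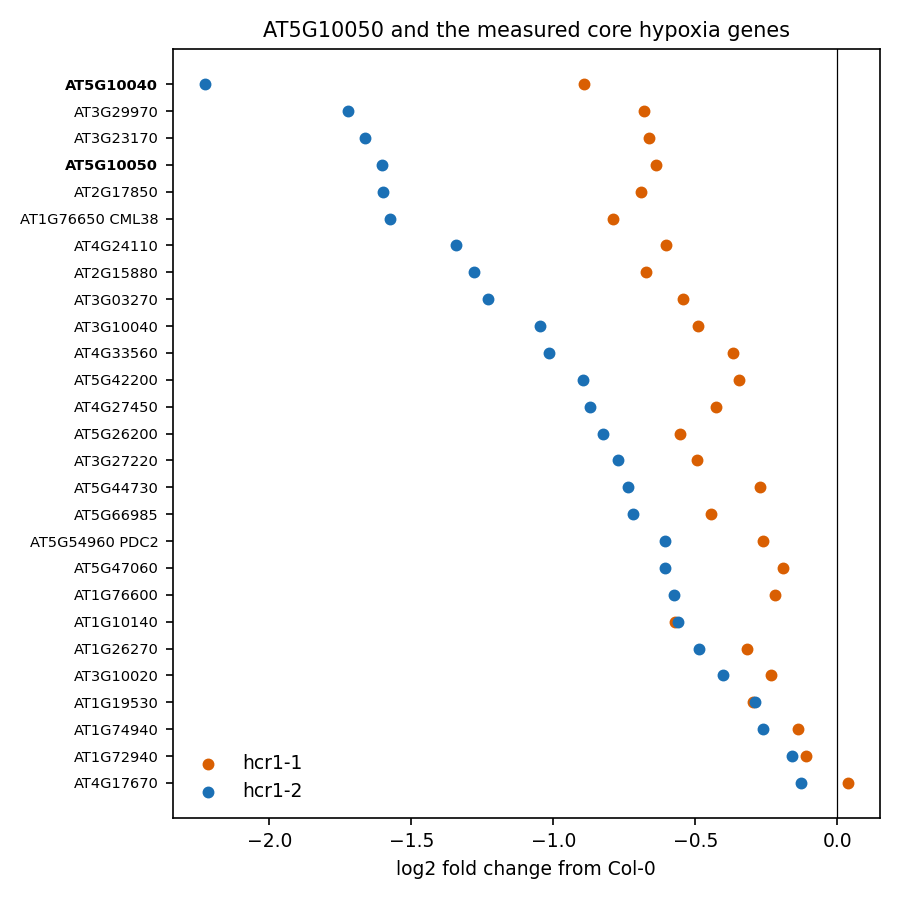
Limma log2 fold change from Col-0 (horizontal) of the 26 measured core hypoxia genes and AT5G10050 (rows, ordered by the value in hcr1-2) in hcr1-1 and hcr1-2, with the pair in bold. AT5G10040 is at the low end in both lines (-0.89 and -2.23), and AT5G10050 (-0.64 and -1.60) lies among the lowest core genes.

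When the mean of the other core genes on each array entered the fit as a covariate, an alternative added after seeing the data, the differences of the pair were smaller in size. In hcr1-2 AT5G10040 stood at -0.31 (95% interval -1.06 to 0.44) and AT5G10050 at -0.14 (95% interval -0.69 to 0.42). In hcr1-1 the values were 0.037 (95% interval -0.58 to 0.66) and 0.073 (95% interval -0.38 to 0.53). The covariate differs between genotypes too and followed the pair closely (r of 0.967 and 0.973), so smaller differences were built in. This fit describes only how far the pair stood from the other core genes on the same arrays.

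The genes whose pattern was most like that of the pair were ranked by Pearson r over the 9 arrays, within and between genotypes together. With AT5G10040, 88 genes (0.532%) had an r of 0.9 or more, and with AT5G10050 85 genes (0.514%) did. AT5G10050 was first for AT5G10040, and AT5G10040 was first for AT5G10050. Of the 10 genes nearest to each, 7 were on both lists, 4 of the AT5G10040 list and 5 of the AT5G10050 list were core hypoxia genes.

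Calcium and stress proteins were among the nearest. CML38 (AT1G76650), which senses calcium through calmodulin-like domains, had an r of 0.981 with AT5G10040 and 0.975 with AT5G10050. AT3G03270 (HRU1), a universal stress protein, had 0.979 and 0.988, and AT3G11930, of the same protein family, had 0.975 and 0.976. AT1G53430, a receptor-like kinase, had 0.971 with AT5G10050.

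Enzymes and a lipid-binding protein followed the pair as closely. AlaAT1 (AT1G17290), the alanine aminotransferase of hypoxic nitrogen metabolism, had an r of 0.978 with AT5G10040 and 0.971 with AT5G10050. AT2G17850 had 0.971 and 0.981, and CP5 (AT1G64720), a lipid-binding START domain protein, had 0.985 and 0.984. AT1G09800, of the pseudouridine synthase family, had 0.971 with AT5G10040. The remaining near genes were AT2G47890, a B-box zinc finger protein, at 0.977 and 0.980, AT3G29970 at 0.973 with AT5G10040, and AT4G24110, a core hypoxia gene of unknown function, at 0.975 with AT5G10050. Closeness in r was not closeness in size: CP5 ranged over 1.33 log2 units and AT2G47890 over 0.86, where AT5G10040 ranged over 3.41.

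Among the measured core genes, the 8 nearest to AT5G10040 were CML38, AT3G03270, AT3G29970, AT2G17850, AT4G24110, AT4G27450, AT5G44730 and AT3G10040 (HRA1, a transcription factor that restrains the response), with r from 0.981 down to 0.954. The least alike was AT1G72940 at 0.41, a dim row with a mean of 1.26. PDC2 (AT5G54960), a pyruvate decarboxylase of ethanol fermentation and named here for its role after its values were seen, had an r of 0.95 and a range of 1.20.

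A few genes ran opposite to the pair. AT1G56220, a dormancy and auxin associated family gene, had an r of -0.975 with AT5G10040 and -0.947 with AT5G10050, and stood at a log2 fold change of 0.54 in hcr1-2, with 0.17 in hcr1-1. AT1G49500 and AT1G67870 had an r of -0.955 each with AT5G10040, and AT5G18130 and AT4G32340 had -0.964 and -0.951 with AT5G10050. Their ranges, from 0.46 to 0.90 log2 units, were a fraction of those of the pair. All genes compared here share the same 9 pools of RNA, so these likenesses describe the pools.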

How the data were processed

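Root RNA was hybridised to Affymetrix Arabidopsis Gene 1.1 ST arrays, 1 per sample. Per the submitters' processing notes, the deposited log2 values were made with RMA in Affymetrix Expression Console, a method that corrects background, brings all arrays to 1 distribution and sums up the probes of each row. Tool versions, settings and the build are not given in the sources used here.

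Of 38408 rows, 16746 were paired with 1 gene, and names and neighbours came from a RefSeq table (TAIR10.1) that 16601 of them matched. A gene with several rows is represented by its brightest. All 16746 rows were fitted with limma 3.58.1 (R 4.3.3) over the 9 arrays, two-sided, with Benjamini-Hochberg adjustment over all of them. The fit was also run on simulated data with independent noise in each row, without the variation that genes share here. The number of arrays limits the precision.

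The members, lists and tests were chosen with earlier results of these data known. Named genes were the pair, the 10 nearest to each and the 3 most opposite by Pearson r, the core genes nearest to AT5G10040, the measured neighbours, AT5G65205 and AT5G65207. Correlations carry no p value, since shared variation chose the pair. Promoter motifs, protein matches and a list of Rossmann-fold genes, which had been planned, were not analysed here. Same-numbered arrays of different genotypes had deviations that correlated from -0.19 to 0.16, so the numbers were not taken to pair the arrays.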

Additional observations from a re-analysis of the deposited data

How the results depend on the processing

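With quantile normalization, median centring or array weights the fold changes of the pair moved by less than the SD within genotypes, and in this balanced design the compared groups alone and the replicate block cannot move them. With the mean of the other core hypoxia genes as a covariate they moved further: AT5G10040 stood at -0.31 in hcr1-2 and at -0.14 in the mean of both lines, and AT5G10050 at -0.14 and -0.031. With the replicate block AT5G10040 was again at -2.23 in hcr1-2 (SE 0.45 in place of 0.72), and the correlation of the pair was 0.981 in place of 0.993. No label ties a replicate number to a batch, and 5 of 9 arrays correlated best with an array of their own number. Without each array in turn, AT5G10040 in hcr1-2 ran from -2.89 to -1.88, AT5G10050 from -2.02 to -1.30 and the correlation from 0.991 to 0.998. In hcr1-1 the ranges were -1.42 to -0.0016 and -1.07 to 0.077, the near-0 ends without hcr1-1 replicate 2. The count of genes past an adjusted p of 0.05 by limma, 0 in the 3 contrasts with Col-0, was 1 in hcr1-1 (HCR1) with rows below the median left out or with trended and robust variances. Without each array in turn it ran from 0 to 1 in hcr1-1 and from 0 to 2 in the mean of both lines (HCR1 and AT5G35940, without hcr1-1 replicate 3).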
